A study of Saccharomyces cerevisiae with 3 samples.

Results

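The 36 genes described here encode enzymes of nucleotide supply in baker's yeast: purine and pyrimidine synthesis, the salvage of free bases, and the nucleotide kinases. They were chosen by name from a list of pathway genes, with earlier results of these data known. Every spot whose platform gene symbol was on that list was used. All 36 were found, each with 2 spots, among 5539 named genes. Each of the 3 two-colour arrays set a YAP1 mutant strain (Cy3 channel) beside the wild type (Cy5 channel), both as total RNA. The sample titles do not give the kind of mutation. Both strains had spent 1 h in arsenite, As(III), at 0.2 mM, so no unexposed cells enter the comparison. Yap1 is a transcription factor of oxidative and metal stress, and the arrays ask which transcripts differ between the strains under arsenite. The labels give neither the strain background nor its auxotrophic markers, nor whether the replicates are separate cultures. All p-values therefore rest on the spread among these 3 arrays, which may be technical, and with so few arrays the precision is limited. In limma this spread is largely pooled over all named genes, so the SD printed for a gene does not by itself set its p.

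Purine and pyrimidine nucleotides are both built on phosphoribosyl pyrophosphate (PRPP), the activated sugar phosphate that the PRS enzymes make. In purine synthesis the ring is assembled on PRPP up to inosine monophosphate (IMP), which is then turned into adenosine or guanosine monophosphate (AMP, GMP). In pyrimidine synthesis the ring is made first, joined to PRPP as orotate, and converted to uridine and cytidine nucleotides. Salvage enzymes reuse free bases, mostly by joining them to PRPP. In yeast the ADE genes are activated by Bas1 and Pho2 when adenine is short, and several URA genes by Ppr1 when pyrimidine intermediates build up.

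Values are deposited log ratios minus the median over named genes of the same array, here called the array median. The direction of the ratio and the base of the logarithm are not given in the sources used here, so each gene is only placed on the upper or the lower side of the array median. Which strain held more transcript is not stated, and no fold change is given. YAP1, the mutated gene, lay at −1.43, −0.22 and −0.74 on replicates 1, 2 and 3, below the array median on every array. Its adjusted p was under 0.05 on the lower side (mean −0.80 ± 0.61 SD, n = 3, limma adjusted p = 0.0323). It lay close to the array median on replicate 2. It did not pass without replicate 1 (−0.48, adjusted p = 0.226), without replicate 3 (−0.83, adjusted p = 0.197) or with its last spot only (−0.32, adjusted p = 0.452). Its spots differed, since with the first spot only it passed at −1.34 (adjusted p = 0.011). Without replicate 2 it passed too (−1.09, adjusted p = 0.0101). In settings described below it passed with array weights, block centring, quantile normalization and centring without ribosomal protein genes, but not unmoderated (adjusted p = 0.332). Against the unnamed spots, also described below, it lay above 0 (0.17, adjusted p = 0.595). Log ratios also went down with the scatter between a gene's own spots, and with this scatter trend removed YAP1 lay at −0.21 (adjusted p = 0.614). It was therefore not used to set a direction. The dyes were not swapped on any of the 3 arrays, so dye effects and a difference between the strains cannot be told apart. The array medians were −2.11, −2.30 and −1.59 before this subtraction. Sides are relative to it: as deposited, all 36 means lay below 0, and only 87 of the 5539 named genes lay above it. Against 192 pairs of unnamed spots all 36 lay above 0, as did 5295 of the 5539 named genes. These unnamed spots were picked because their ratios were low on all arrays, so most genes lie above them by design.

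Relative to the array median, 5 of 8 pyrimidine genes, the IMP dehydrogenase genes, 3 of 5 PRPP synthetase genes and 3 of 5 salvage genes passed on the upper side. Of the 9 genes of purine synthesis up to IMP, 7 did not pass. This is near the share over all named genes, of which 3958 of 5539 did not pass. Of the 36 genes, 16 passed on the upper side (limma, Benjamini-Hochberg adjusted p under 0.05 over all named genes), 1 on the lower side and 19 did not pass. Over all named genes 28.5% passed, 16.0% on the upper side and 12.5% on the lower side. The median of the 36 means was 0.65, against −0.02 for all named genes, whose outer quartiles were −0.42 and 0.44. A ratio above the array median on every array was seen in 20 of the 36 genes, against 29.7% of all genes, and a ratio below it on every array in 3, against 29.2% of all genes. The median of the 36 genes was 0.63, 0.53 and 0.57 on replicates 1, 2 and 3. The calls rest on limma's moderation of the variance: without it 0 of the 36 genes passed on either side. Then 13 of the 36 had an unadjusted p under 0.05, beside 1252 of the 5539 named genes. With the scatter trend removed, 9 of the 36 passed on the upper side, beside 628 of the 5539 named genes. Without replicate 3 only PRS1 and URA5 passed on the upper side and none on the lower side, and calls over all genes numbered 275 and 48 in that setting, against 886 and 695 with all arrays. As deposited, 0 of the 36 genes passed above 0 and 31 passed below it, beside 2 and 5258 of the 5539 named genes. Against the unnamed pairs 32 passed on the upper side and 0 on the lower side, beside 3973 and 11 of all named genes.

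**Figure D1:**
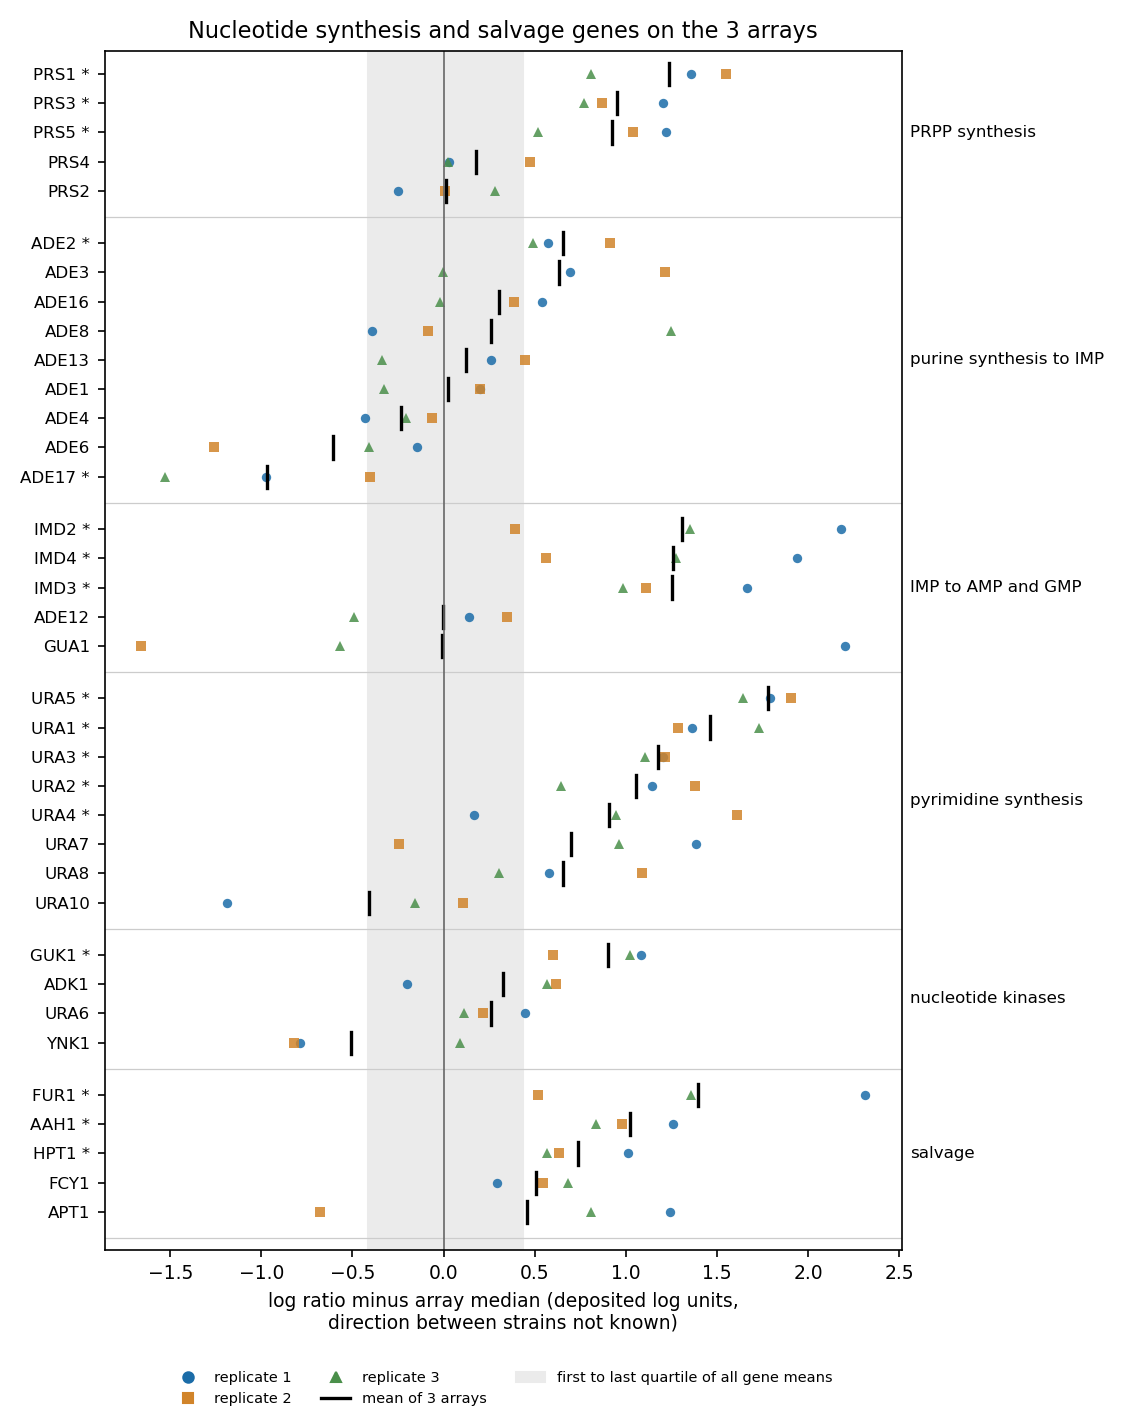
Log ratio minus the array median (deposited log units, horizontal axis) of the 36 genes, grouped by step, with a symbol for each of the 3 arrays, a bar for their mean, an asterisk for genes past an adjusted p of 0.05, and grey between the outer quartiles of the means of all genes. URA5 stands farthest to the upper side at 1.78 and ADE17 farthest to the lower side at −0.97, both relative to the array median. All 36 means lie below 0 as deposited, where only 87 of the 5539 named genes lie above it.

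Of the PRPP synthetase genes, PRS1, PRS3 and PRS5 passed on the upper side, beside 16.0% of all named genes, while PRS2 and PRS4 did not pass. PRS1 lay at 1.36, 1.55 and 0.81 on the 3 arrays, mean 1.24 ± 0.38 (SD, n = 3; limma adjusted p = 0.00166). PRS3 lay at 1.20, 0.87 and 0.77, mean 0.95 ± 0.23 (SD, n = 3; adjusted p = 0.00735). PRS5 lay at 1.22, 1.04 and 0.52, mean 0.92 ± 0.36 (SD, n = 3; adjusted p = 0.0102). All 3 genes were above the array median on every array. PRS4 lay at 0.03, 0.48 and 0.02 (mean 0.18, adjusted p = 0.599) and PRS2 at −0.25, 0.01 and 0.28 (mean 0.01, adjusted p = 0.97), both between the outer quartiles of all genes. With the scatter trend removed PRS1 passed at 0.96 (adjusted p = 0.0151), whereas PRS3 at 0.67 (adjusted p = 0.0516) and PRS5 at 0.46 (adjusted p = 0.157) did not. Without replicate 3 the adjusted p was 0.0447 for PRS1, 0.0776 for PRS3 and 0.0669 for PRS5, and without replicate 2 it was 0.0526 for PRS5.

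The 9 genes of purine synthesis up to IMP had a median of their means of 0.12, the nearest to the array median among the steps. On replicate 1 the kinase genes were nearer, with a median of 0.12 against 0.20. Of the 9 genes, 1 passed on the upper side and 1 on the lower side, beside 16.0% and 12.5% of all named genes. ADE4, for the amidotransferase that commits PRPP to purines, lay at −0.43, −0.06 and −0.21 (mean −0.23 ± 0.19 SD, n = 3; adjusted p = 0.47). ADE8, for a formyltransferase early in the pathway, lay at −0.39, −0.09 and 1.25. Its value on replicate 3 rested mostly on 1 spot, since its spots stood at 2.04 and 0.46 there. ADE6, for the amidotransferase that acts next, lay at −0.14, −1.26 and −0.41, below the array median on every array but not past the threshold (mean −0.60 ± 0.58 SD, n = 3; adjusted p = 0.0899). Without replicate 1 it passed on the lower side at −0.83 (adjusted p = 0.0238).

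ADE2, for the carboxylase whose loss turns yeast colonies red, was the gene of this step past the threshold on the upper side. It lay at 0.57, 0.91 and 0.49, mean 0.66 ± 0.22 (SD, n = 3; limma adjusted p = 0.0449). This call was near the threshold and was lost without any one of the arrays, with an adjusted p of 0.0651, 0.292 and 0.138 without replicates 1, 2 and 3, and with the scatter trend removed (0.43, adjusted p = 0.171). ADE1, for the next ligase, lay at 0.20, 0.20 and −0.32, and ADE13, for the lyase that also acts on the way to AMP, at 0.26, 0.45 and −0.34. Neither passed, with means of 0.03 and 0.12 (adjusted p = 0.945 and 0.73). ADE3, for the folate enzyme that supplies one-carbon units, lay at 0.69, 1.21 and −0.0021 and did not pass (mean 0.63 ± 0.61 SD, n = 3; adjusted p = 0.0798).

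The last enzyme of IMP synthesis has a pair of genes, ADE16 and ADE17. ADE17 (YMR120C) was the only one of the 36 genes past the threshold on the lower side, at −0.98, −0.41 and −1.53 (mean −0.97 ± 0.56 SD, n = 3; limma adjusted p = 0.0112). Its spots were close to each other, at −0.98 and −0.98 on replicate 1 and −0.46 and −0.35 on replicate 2, with a wider gap of −1.83 and −1.23 on replicate 3. Against the unnamed pairs its mean was 0.0015, so it stood at their level. Without replicate 3 it did not pass (−0.69, adjusted p = 0.173). ADE16 lay at 0.54, 0.39 and −0.02, mean 0.30 ± 0.29 (SD, n = 3; adjusted p = 0.351).

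From IMP onward, the genes of the first enzyme toward GMP lay on the upper side of the array median, and those of the other enzymes did not pass. IMD2, IMD3 and IMD4 encode IMP dehydrogenase, the rate-limiting enzyme of guanine nucleotide synthesis. IMD2 lay at 2.18, 0.39 and 1.35 (mean 1.31 ± 0.90 SD, n = 3; limma adjusted p = 0.00439). IMD3 lay at 1.66, 1.11 and 0.98 (mean 1.25 ± 0.36 SD, n = 3; adjusted p = 0.00147). IMD4 lay at 1.94, 0.56 and 1.27 (mean 1.26 ± 0.69 SD, n = 3; adjusted p = 0.0031). All 3 were highest on replicate 1. Without replicate 3 their adjusted p was 0.143, 0.0566 and 0.113. These genes share most of their sequence, so a spot for one may also bind RNA of the others and the single values are uncertain. Whether their 3 calls are separate is uncertain too.

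GUA1 (YMR217W), for the GMP synthase that follows, had the widest spread of the 36 genes, at 2.20, −1.66 and −0.57. Among all genes of an array, the percentile of these values was 98.9, 1.37 and 14.7. Both spots went the same way on each array, at 2.01 and 2.39 on replicate 1, −2.46 and −0.87 on replicate 2 and −0.52 and −0.62 on replicate 3. The mean was −0.01 ± 1.99 (SD, n = 3; adjusted p = 0.99), and without replicate 1 the gene passed on the lower side at −1.11 (adjusted p = 0.00166). ADE12, for the first enzyme toward AMP, lay at 0.14, 0.35 and −0.49 and did not pass (adjusted p = 0.996).

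Of the 8 pyrimidine genes, 5 passed on the upper side of the array median and 0 on the lower side, beside 16.0% and 12.5% of all named genes. URA2, for the fused enzyme that starts the pathway and is inhibited by its end product, lay at 1.14, 1.38 and 0.65 (mean 1.06 ± 0.37 SD, n = 3; limma adjusted p = 0.00472). URA4, for dihydroorotase, lay at 0.17, 1.61 and 0.95 (mean 0.91 ± 0.72 SD, n = 3; adjusted p = 0.022). URA1, for dihydroorotate dehydrogenase, lay at 1.36, 1.29 and 1.73 (mean 1.46 ± 0.24 SD, n = 3; adjusted p = 0.000335). Of these URA1 was above the upper quartile of all genes on every array, as was URA2, while URA4 was near the array median on replicate 1.

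Of the genes that join orotate to PRPP, URA5 (YML106W), for the main enzyme, stood highest of the 36 genes, at 1.79, 1.91 and 1.65 (mean 1.78 ± 0.13 SD, n = 3; limma adjusted p = 4.56e-05). It ranked 143rd of the 5539 named genes. URA10, for the minor enzyme, lay at −1.19, 0.11 and −0.16 and did not pass (mean −0.41, adjusted p = 0.263). URA3, for the decarboxylase that makes uridine monophosphate and a common selection marker in yeast strains, lay at 1.20, 1.21 and 1.11. Its mean of 1.17 had the smallest spread of the 36 genes, 0.06 (SD, n = 3; adjusted p = 0.00161). The labels do not say which strain carried an intact copy.

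URA7 and URA8 encode CTP synthase, and neither passed. URA7 lay at 1.39, −0.25 and 0.96 (mean 0.70, adjusted p = 0.0801), and without replicate 2 it passed at 1.17 (adjusted p = 0.00479). URA8 lay at 0.58, 1.09 and 0.30, above the array median on every array (mean 0.66, adjusted p = 0.0534). Without replicate 3 the adjusted p was 0.0573 for URA2, 0.206 for URA4, 0.051 for URA1, 0.0304 for URA5 and 0.0593 for URA3, while the means stayed between 0.89 (URA4) and 1.85 (URA5). Without replicate 2 URA4 did not pass either (0.56, adjusted p = 0.265), nor did it with the scatter trend removed (0.84, adjusted p = 0.0568).

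Of the 4 nucleotide kinase genes, 1 passed on the upper side of the array median and 0 on the lower side, beside 16.0% and 12.5% of all named genes. It was GUK1, for the kinase that phosphorylates GMP, at 1.09, 0.60 and 1.02 (mean 0.90 ± 0.26 SD, n = 3; limma adjusted p = 0.0101). It did not pass without replicate 3 (0.84, adjusted p = 0.121). The others did not pass: URA6, for the kinase of uridine monophosphate, had a mean of 0.26, ADK1, for adenylate kinase, 0.33, and YNK1, for the kinase that acts on all nucleoside diphosphates, −0.51 (adjusted p = 0.421, 0.335 and 0.143). YNK1 was low on 2 of the arrays, at −0.79 and −0.82 on replicates 1 and 2, and at 0.09 on replicate 3.

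In salvage, 3 of 5 genes passed on the upper side of the array median and 0 on the lower side, beside 16.0% and 12.5% of all named genes. With the scatter trend removed none of the 5 passed, at 0.58 for AAH1, 0.68 for HPT1 and 1.00 for FUR1 (limma adjusted p = 0.0791, 0.0501 and 0.0532). AAH1, for the deaminase that turns adenine into hypoxanthine, lay at 1.26, 0.98 and 0.84 (mean 1.02 ± 0.21 SD, n = 3; limma adjusted p = 0.00451). HPT1, for the enzyme that joins hypoxanthine or guanine to PRPP, lay at 1.01, 0.63 and 0.57 (mean 0.74 ± 0.24 SD, n = 3; adjusted p = 0.0281). APT1, for the corresponding adenine enzyme, lay at 1.24, −0.68 and 0.81 and did not pass (mean 0.46 ± 1.01 SD, n = 3; adjusted p = 0.284). On replicate 2 the APT1 spots differed, at −1.34 and −0.02, and without that replicate the gene passed at 1.03 (adjusted p = 0.0169).

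FUR1, for the enzyme that joins uracil to PRPP, lay at 2.31, 0.52 and 1.36, mean 1.40 ± 0.90 (SD, n = 3; limma adjusted p = 0.00281). Its value on replicate 1 was the highest of any of the 36 genes on any array. FCY1, for cytosine deaminase, lay at 0.29, 0.55 and 0.68, above the array median on every array but not past the threshold (mean 0.51, adjusted p = 0.111). Without replicate 3 the adjusted p was 0.0687 for AAH1, 0.12 for HPT1 and 0.122 for FUR1. For HPT1 it was 0.122 without replicate 1 and 0.0856 without replicate 2.

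Set side by side, the medians of the steps differed by array. The pyrimidine median was 1.17, 1.25 and 0.95 on replicates 1, 2 and 3, and the median of the purine genes up to IMP was 0.20, 0.20 and −0.21. The pyrimidine genes thus lay higher on each array, by much the same amount, and the purine median minus the pyrimidine median was −0.97, −1.05 and −1.16 (mean −1.06 ± 0.10 SD, n = 3). Salvage had medians of 1.24, 0.55 and 0.81, so the purine median minus the salvage median was −1.04, −0.35 and −1.02 (mean −0.80 ± 0.39 SD, n = 3). PRPP synthesis had medians of 1.20, 0.87 and 0.52 and lay above the purine genes by 1.00, 0.67 and 0.72. The pyrimidine and salvage medians kept no order, at a difference of −0.07, 0.70 and 0.15. The genes from IMP onward spread most between arrays, with medians of 1.94, 0.39 and 0.98. These differences do not depend on the zero point of an array, but some depend on the trend in spot scatter. With it removed, PRPP synthesis lay above the purine genes by 0.38, 0.11 and 0.46 (mean 0.32 ± 0.19 SD, n = 3), and salvage minus purine was 0.61, −0.39 and 0.71, so salvage was lower on replicate 2. Pyrimidine minus purine was then 0.87, 0.82 and 1.11 (mean 0.93 ± 0.16 SD, n = 3). No p is given for them, since the members were chosen with earlier results known, and 3 arrays cannot go below an exact sign-flip p of 0.25.

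**Figure D2:**
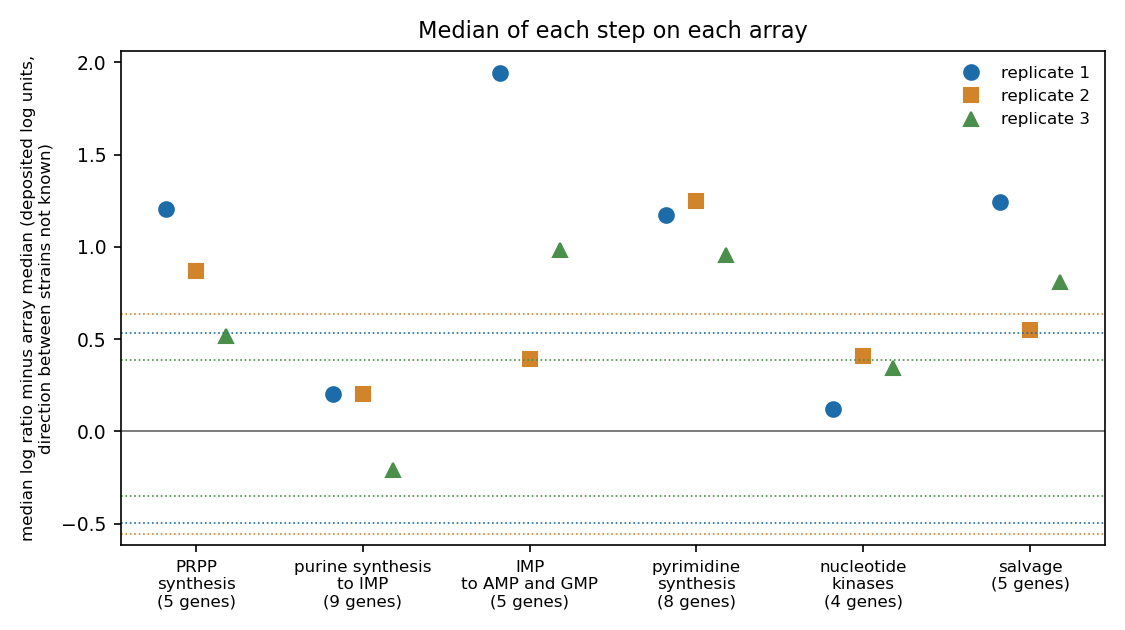
Median log ratio minus the array median (deposited log units, vertical axis) of the genes of each step on each array, with dotted lines at the quartiles of all named genes of the array of that colour. The pyrimidine medians, from 0.95 to 1.25, lie above the upper quartile on all arrays, and those of purine synthesis to IMP, from −0.21 to 0.20, lie between the quartiles, where sides hold relative to the array median only.

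Where a reaction has several genes, some pairs differed on every array and others did not. ADE16 lay above ADE17 by 1.51, 0.79 and 1.51 (mean 1.27 ± 0.42 SD, n = 3). URA5 lay above URA10 by 2.98, 1.80 and 1.80 (mean 2.19 ± 0.68 SD, n = 3). The CTP synthase genes had no order, with URA7 minus URA8 at 0.81, −1.34 and 0.66. The IMD genes differed from each other by less than the spread between arrays, with mean differences of 0.06 ± 0.68 for IMD2 minus IMD3, 0.05 ± 0.21 for IMD2 minus IMD4 and −0.01 ± 0.48 for IMD3 minus IMD4 (SD, n = 3 each). A spot for one IMD gene may also bind RNA of the others, so these differences need not be those of the transcripts. How far such binding contributes was not tested.

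Among the PRS genes, PRS1 lay above PRS2 by 1.61, 1.54 and 0.53 and above PRS4 by 1.33, 1.07 and 0.79. PRS3 lay above PRS4 by 1.17, 0.40 and 0.75, and PRS2 below PRS5 by a mean of 0.91 on every array (−0.91 ± 0.63 SD, n = 3). PRS3 minus PRS5 was −0.01, −0.17 and 0.26 and PRS2 minus PRS4 was −0.28, −0.47 and 0.26, so the order within these pairs changed between arrays. The enzyme in yeast is made of several different PRS subunits, and PRS1 and PRS5 carry insertions that the others lack.

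**Figure D3:**
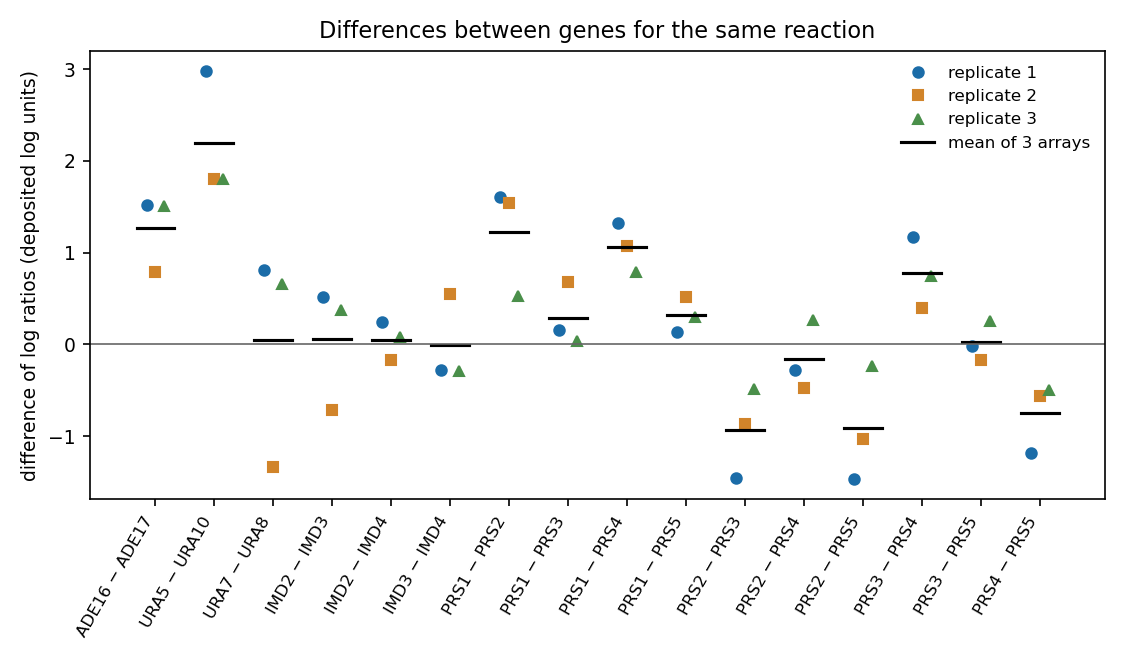
Difference of the log ratios of genes for the same reaction (deposited log units, vertical axis) on each of the 3 arrays, with a bar for the mean. URA5 minus URA10 and ADE16 minus ADE17 lie above 0 on all arrays, at means of 2.19 and 1.27, while the differences among IMD2, IMD3 and IMD4 lie on both sides of 0. A spot for one IMD gene may also bind RNA of the others.

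The arrays differed more for a few of these genes than for most. The range over the 3 arrays exceeded 1.5 units for 6 of the 36 genes (16.7%), against 6.61% of all named genes, while the median range was 0.73 units for the 36 genes and 0.68 for all. GUA1, FUR1, IMD2, IMD4, APT1, URA7 and ADE6 were higher on replicate 1 than on replicate 2 by more than 1 unit, which held for 7.49% of all genes. URA4 and URA10 were higher on replicate 2 than on replicate 1 by more than 1 unit, which held for 6.90% of all genes. The gap was 3.86 units for GUA1, 1.92 for APT1, 1.79 for FUR1 and 1.79 for IMD2. URA5, URA3 and URA1, by contrast, had ranges of 0.26, 0.11 and 0.44. Replicate 3 was the lowest of the arrays for 19 of the 36 genes (52.8%), against 34.4% of all genes. Values of all named genes also spread least on replicate 3. Its outer quartiles were −0.35 and 0.39, against −0.50 and 0.53 on replicate 1 and −0.55 and 0.63 on replicate 2. How far this narrower scale contributes to the count was not tested.

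Over all named genes the log ratio went down with the scatter between a gene's own spots, from a median of 0.60 among the genes with the smallest scatter to −0.52 among those with the largest, in 10 groups of equal size. Channel intensities were not analysed here, so spot brightness is not known. The median scatter of the 36 genes was 0.28, close to the 0.27 of all genes. With this trend removed, 9 of the 36 genes passed on the upper side, beside 628 of the 5539 named genes. All 9 were among the 16: PRS1, IMD2, IMD3, IMD4, URA1, URA2, URA3, URA5 and GUK1. ADE17 remained past the threshold on the lower side (−1.26, limma adjusted p = 0.00673). PRS3, PRS5, ADE2, URA4, AAH1, HPT1 and FUR1 no longer passed, with an adjusted p between 0.0501 (HPT1) and 0.171 (ADE2). Their means moved by different amounts: PRS5 stood at 0.46, against 0.92 before, and AAH1 at 0.58, against 1.02, while HPT1 stood at 0.68, against 0.74, and URA4 at 0.84, against 0.91. The lost calls were all of genes with a scatter of at most 0.25. PRS5, AAH1 and FUR1 had scatters of 0.12, 0.12 and 0.14, PRS3 0.17, ADE2 0.18, and URA4 and HPT1 0.25 each. Kept calls lay on both sides of this value. URA5 at 0.11 passed (1.29, adjusted p = 0.00277), as did PRS1 at 0.17 and IMD2 at 0.25. The other kept upper-side calls were URA3 at 0.26, GUK1 and URA1 at 0.34, IMD4 at 0.36, URA2 at 0.40 and IMD3 at 0.42. How far this trend contributes to the values was not tested.

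**Figure D4:**
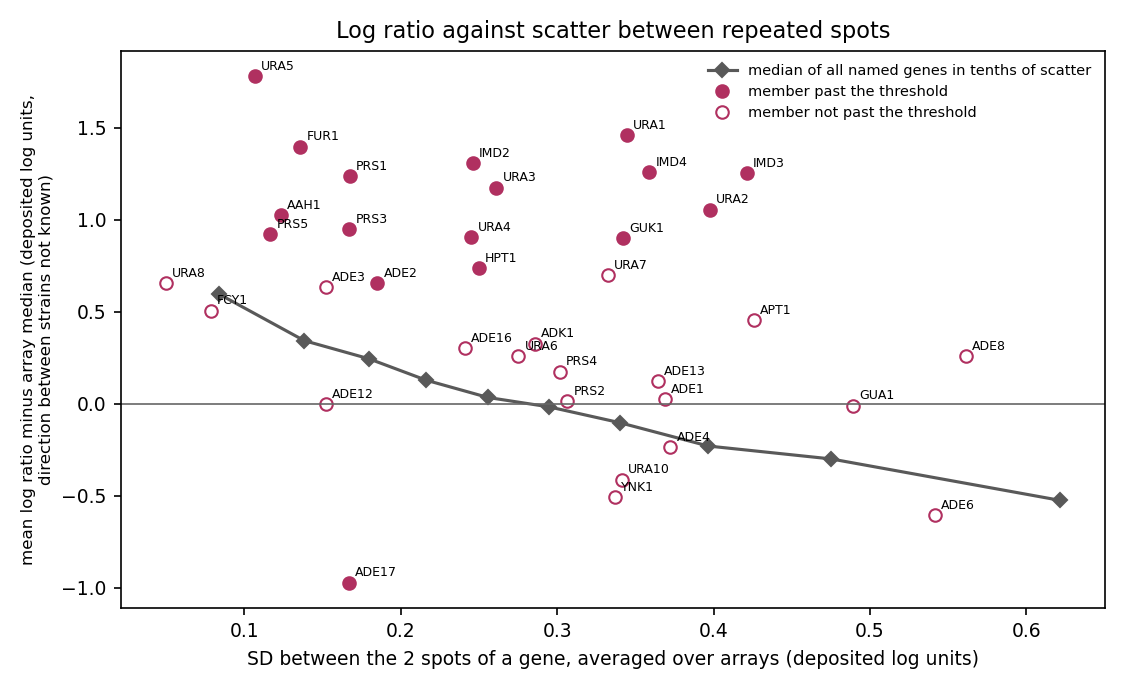
Mean log ratio minus the array median (deposited log units, vertical axis) against the SD between the 2 spots of a gene, averaged over the arrays (horizontal axis), for the 36 genes, filled where past the threshold, with a line through the medians of all named genes in 10 groups by scatter. The line goes down from 0.60 to −0.52 relative to the array median, and URA1, IMD4, URA2 and IMD3 lie above 1 at scatters from 0.34 to 0.42, where the line is below 0.

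The surrounding pathways were described from 3 further lists of 40 genes in all, of which 38 had spots with their symbol. Of 23 other genes of nucleotide uptake and interconversion, 2 passed on the upper side of the array median, 4 on the lower side and 17 did not pass, beside the 16.0% and 12.5% of all named genes on those sides, and their median was −0.10, against −0.02 for all. ADO1, for adenosine kinase, stood highest at 1.66, 1.83 and 1.14 (mean 1.54 ± 0.36 SD, n = 3; limma adjusted p = 0.000268) and also passed without any one of the arrays. FCY21, of the purine-cytosine permease family, lay at 0.63 (adjusted p = 0.0493). On the lower side were XPT1, for the enzyme that salvages xanthine, at −0.83, CDD1, for cytidine deaminase, at −0.77, FUR4, the uracil permease gene, at −0.70, and CDC8, for thymidylate kinase, at −0.66 (adjusted p = 0.0318, 0.0393, 0.0482 and 0.0432). Without replicate 3 none of these 5 passed, with an adjusted p between 0.103 (XPT1) and 0.161 (CDC8). CDD1 and FCY21 were also lost without replicate 1 (adjusted p = 0.325 and 0.0922), and XPT1, FUR4, CDC8 and FCY21 without replicate 2 (adjusted p = 0.404, 0.461, 0.274 and 0.247). Centring each block of consecutive spots on its own median ended the calls of XPT1 (−0.56, adjusted p = 0.107), FUR4 (−0.37, adjusted p = 0.254), CDD1 (−0.34, adjusted p = 0.31) and FCY21 (0.56, adjusted p = 0.0656). Removing the scatter trend ended those of CDC8 (−0.28, adjusted p = 0.377), CDD1 (−0.79, adjusted p = 0.0607), FUR4 (−0.74, adjusted p = 0.0611) and FCY21 (0.49, adjusted p = 0.119). Against the unnamed pairs the 4 lower-side means were above 0, as were those of 5295 of the 5539 named genes.

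Of 11 genes for one-carbon units, glycine and histidine, which draw on the same folates and on PRPP, 5 passed on the upper side, 0 on the lower side and 6 did not pass, beside 16.0% and 12.5% of all named genes, with a median of 0.43. They were the histidine genes HIS1 at 1.33 ± 0.38, HIS4 at 0.90 ± 0.53 and HIS7 at 0.80 ± 0.45 and the mitochondrial folate genes MIS1 at 0.97 ± 0.35 and SHM1 at 0.74 ± 0.17 (SD, n = 3 each). Their adjusted p ran from 0.000961 (HIS1) to 0.0251 (SHM1) in limma. Without replicate 3 none of the 5 passed, with an adjusted p between 0.06 (HIS4) and 0.106 (SHM1), and without replicate 2 only HIS1 did (adjusted p = 0.000166), and the adjusted p of SHM1 without replicate 1 was 0.0794. With the scatter trend removed SHM1 (0.25, adjusted p = 0.41), HIS4 (0.58, adjusted p = 0.106) and HIS7 (0.63, adjusted p = 0.0791) did not pass, and with the blocks centred HIS4 did not (0.58, adjusted p = 0.0725). As deposited, all 5 lay below 0, where only 87 of the 5539 named genes lay above it. Of the 11 genes, 6 lay above the array median on every array and 3 below it on every array. These 3 were GCV1 at −0.59, SHM2 at −0.50 and MTD1 at −0.41, none past the threshold (adjusted p = 0.0861, 0.116 and 0.2).

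Of the regulators, GCN4, for the activator of amino acid synthesis genes that also acts on some ADE genes, lay on the upper side of the array median at 1.23, 1.23 and 0.93 (mean 1.13 ± 0.17 SD, n = 3; limma adjusted p = 0.00222, and adjusted p = 0.0575 without replicate 3). BAS1 lay at 0.39, 0.06 and 0.15 and PHO2 at −0.24, 1.17 and 0.52, and neither passed (mean 0.20 and 0.49, adjusted p = 0.545 and 0.189). Without replicate 1 PHO2 passed at 0.85 (adjusted p = 0.0214). PPR1, for the activator of URA genes, lay at −0.44, −1.07 and −0.09, below the array median on every array but not past the threshold (mean −0.53 ± 0.50 SD, n = 3; adjusted p = 0.121).

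**Figure D5:**
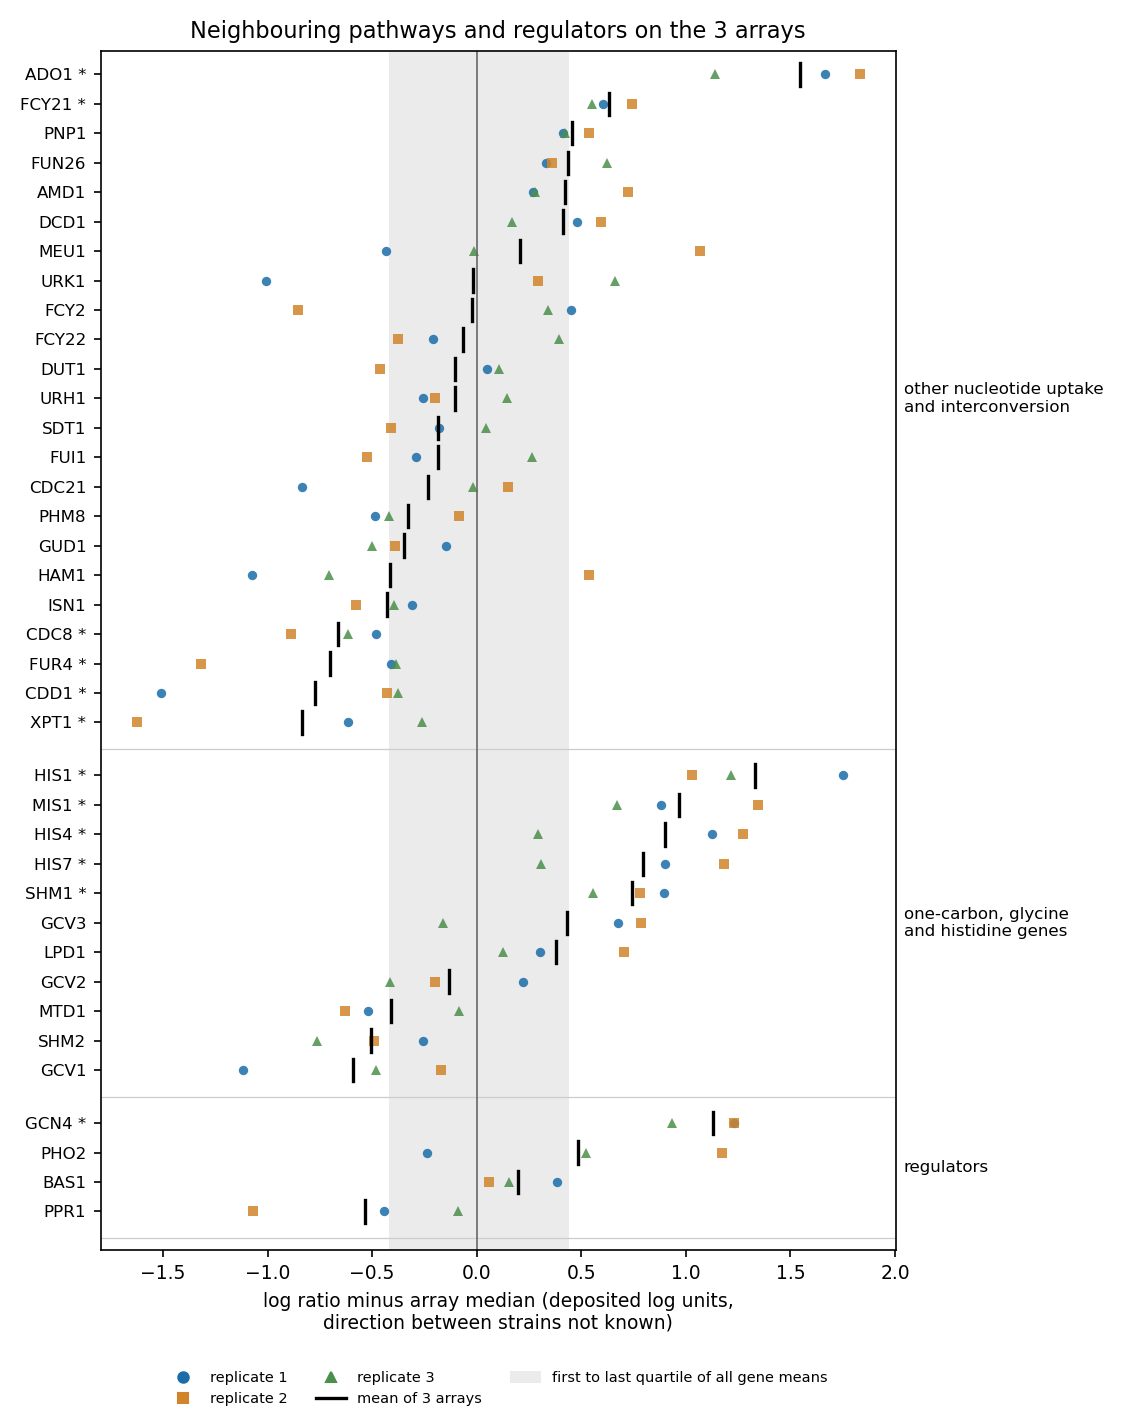
Log ratio minus the array median (deposited log units, horizontal axis) of 38 genes of the surrounding pathways and regulators on the 3 arrays, with bars for means, asterisks for genes past an adjusted p of 0.05 and grey between the outer quartiles of all genes. ADO1, HIS1 and GCN4 stand highest in their lists at 1.54, 1.33 and 1.13 relative to the array median. All 3 lie below 0 as deposited, where only 87 of the 5539 named genes lie above it.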

How the data were processed

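The deposited table holds 1 log ratio for each of 13056 spots on each of 3 two-colour arrays, taken here as log2; per the labels, Cy3 marks the mutant and Cy5 the wild type on each array. How the authors normalized or corrected the values, with which scanner, and the base and direction of the ratio are not given in the sources used here. Values ran from −6.77 to 1.45. Gene symbols came from the platform annotation: 11138 spots had 1 symbol, 0 had several and 1918 had none. All 36 members matched RefSeq's yeast genes by identifier. Spots of a gene were averaged and each array's median over 5539 named genes subtracted. Gene means over the 3 arrays were set against 0 in limma 3.58.1 in R 4.3.3 (lmFit with an intercept, eBayes, two-sided; prior with 13.35 degrees of freedom), with Benjamini-Hochberg adjustment over all named genes and a threshold of 0.05. The fit was tested on simulated data, which cannot show whether its assumptions hold for these arrays. The members and lists were chosen with earlier results of these data known, so the lists are described by counts and medians and not tested. All members are named, and of the other lists the genes past the threshold and the regulators. Of the one-carbon, glycine and histidine list, the genes below the array median on every array are named too. The alternatives changed the centring, the scaling, the treatment of repeated spots, the weights, the moderation and the arrays used. Intensities, spot quality, promoter and protein sequences were not used here.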

Additional observations from a re-analysis of the deposited data

How the results depend on the processing

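In the order PRPP synthesis, purine synthesis to IMP, IMP onward, pyrimidine synthesis, kinases and salvage, 3, 1, 3, 5, 1 and 3 genes passed on the upper side, and 0, 1, 0, 0, 0 and 0 on the lower side. The zero point decided the sides. As deposited, 0 of the 36 genes passed above 0 and 31 below it (5, 9, 3, 6, 4 and 4 by step), and the step medians averaged over arrays were −1.14, −1.93, −0.89, −0.87, −1.71 and −1.13. Over all genes 2 passed above 0 and 5258 below it, against 886 and 695 with the array median. Genes past the threshold in either setting that changed side as deposited were PRS1 −0.76, PRS2 −1.99, PRS3 −1.05, PRS4 −1.82, PRS5 −1.08, ADE8 −1.74, ADE2 −1.34, ADE1 −1.97, ADE13 −1.88, ADE3 −1.37, ADE16 −1.70, IMD2 −0.69, IMD3 −0.75, IMD4 −0.74, URA2 −0.94, URA4 −1.09, URA1 −0.54, URA5 −0.22, URA3 −0.83, URA7 −1.30, URA8 −1.34, URA6 −1.74, ADK1 −1.67, GUK1 −1.10, AAH1 −0.98, HPT1 −1.26, APT1 −1.54, FUR1 −0.60, FCY1 −1.49, ADO1 −0.46, FCY21 −1.37, SHM1 −1.26, MIS1 −1.03, HIS1 −0.67, HIS4 −1.10, HIS7 −1.20, BAS1 −1.80, PHO2 −1.51, GCN4 −0.87. Against the unnamed spots, 32 passed on the upper side (5, 7, 5, 7, 3 and 5) and 0 on the lower side, over all genes 3973 and 11, and the step medians were 1.84, 1.04, 2.08, 2.10, 1.26 and 1.84. There all 7 members with a mean below the array median lay above 0, at 0.74 for ADE4, 0.0015 for ADE17, 0.97 for ADE12, 0.96 for GUA1, 0.37 for ADE6, 0.56 for URA10 and 0.47 for YNK1, and so did XPT1 0.14, FUR4 0.27, CDC8 0.31, CDD1 0.20.

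With the trend in spot scatter removed, 9 genes passed on the upper side (1, 0, 3, 4, 1 and 0), beside 628 of all named genes. The step medians of PRPP synthesis and salvage were 0.51 and 0.50, against 0.86 and 0.87. With limma's statistic unmoderated, 0 of the 36 genes passed on either side (0 in every step), and 0 on the upper side and 1 on the lower side over all genes, although 13 of the 36 had an unadjusted p under 0.05, all on the upper side, and 1252 of all genes did. The single high call of purine synthesis to IMP (ADE2) was 0 with array weights, with the first spot only and with the last spot only, and the kinase call was 0 with the first spot only. Leaving out 1 array gave 2 to 14 high and 0 to 3 low calls among the 36, with high calls by step of 1 to 3, 0, 0 to 3, 1 to 5, 0 to 1 and 0 to 3, and low calls of 0 to 2 for purine synthesis to IMP and 0 to 1 from IMP onward. Leaving out an array also leaves fewer degrees of freedom. Block centring, quantile normalization and centring without ribosomal protein genes gave 17 high calls each, and all 16 were among them. With only the first or only the last spot of a gene, the calls of PRS3, PRS5, IMD4, URA2, URA4, GUK1 and HPT1 were each lost at least once. Omitting the genes with the most discordant spots left 30 of the 36 genes to test, with 15 high calls, while over all genes it gave 899 high and 372 low. Of 176 paralog differences under the alternatives, 171 moved by less than the SD over arrays. The others were PRS pairs, and PRS1 minus PRS3 changed sign with block centring (−0.10). A change of the zero point cannot move a difference within an array. Leaving out 1 of 3 arrays cannot move a mean by a full SD. Much of this count was therefore fixed in advance, and it does not show that the differences are stable. Each array holds both strains, so its log ratio already compares them within the array. With a single group of arrays, no further pairing was possible. Without intensities, no spot's signal over background could be judged.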
